A study of Homo sapiens with 24 samples.

Results

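The miR-181 family was described across 6 groups of OV90 cells, an ovarian carcinoma cell line, by its 7 mature members: hsa-miR-181a-5p, hsa-miR-181b-5p, hsa-miR-181c-5p and hsa-miR-181d-5p from the 5′ arms, and hsa-miR-181a-3p, hsa-miR-181a-2-3p and hsa-miR-181c-3p from the 3′ arms (hsa for human, left out from here on). The members were chosen by name and are 7 of the 2656 miRNAs listed in the count table. Cells carried an inducible control shRNA (shNeg), an shRNA to RELA (shRELA) or an shRNA to RELB (shRELB), and all groups, controls included, received doxycycline at 1 µg/ml for 72 h. Each was grown either adherent, in RPMI with serum, or as spheroids in ultra-low attachment plates with a serum-replacement medium containing EGF and FGF, a condition that enriches for tumor-initiating cells (TICs). Each of the 6 groups had 4 libraries, 24 in all. Attachment and medium change together between the cultures and cannot be told apart, and a single cell line with stably introduced shRNA was the only model. RELA and RELB are mRNAs, so small RNA libraries hold no check of the knockdowns themselves.

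miRNAs are cut from hairpin precursors, and each hairpin can release a mature RNA from either arm. The arm that accumulates in Argonaute is called the guide and the other, usually degraded, the passenger. The miR-181 guides are known regulators of lymphocyte development and have been studied in ovarian cancer in connection with TGF-β signaling. RELA and RELB are NF-κB transcription factors, of the canonical and the non-canonical pathway respectively. A 5′ arm made identically from more than one hairpin cannot be traced to its locus, whereas a 3′ arm that is specific to a single hairpin can.

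The mature sequences from RefSeq (GRCh38.p14), matched by name for all 7 members, are given below because the arms differ by few bases and these differences separate the hairpins. Capitals mark the seed, bases 2 to 8, which guides target pairing. The 4 members from the 5′ arms share 1 seed.
miR-181a-5p: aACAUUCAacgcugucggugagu
miR-181b-5p: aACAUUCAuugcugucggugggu
miR-181c-5p: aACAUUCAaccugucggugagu
miR-181d-5p: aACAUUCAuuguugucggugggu
The members from the 3′ arms each have a seed held by no other miRNA of the reference table.
miR-181a-3p: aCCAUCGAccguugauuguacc
miR-181a-2-3p: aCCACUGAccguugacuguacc
miR-181c-3p: aACCAUCGaccguugaguggac

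Counted from the 5′ end, miR-181b-5p differs from miR-181a-5p by A9U, C10U and A21G, miR-181d-5p differs from miR-181b-5p by C12U alone, and miR-181c-5p is 1 base shorter than miR-181a-5p, lacking the G at position 11. The passengers of both miR-181a hairpins differ at 3 of 22 bases, U5C, C6U and U16C from miR-181a-3p to miR-181a-2-3p, and the first 2 of these lie in the seed. miR-4262, which shares the seed of the 5′ arms, had 0 counts in all 24 libraries.

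The 6 hairpins lie in 3 clusters. MIR181A1 and MIR181B1 lie on chromosome 1, in an intron of the long non-coding RNA gene MIR181A1HG on the same strand, and the arm of miR-181a-3p is at chr1:198859069-198859090, minus strand. MIR181A2 and MIR181B2 lie on chromosome 9 in an intron of MIR181A2HG, also long non-coding and on the same strand, and opposite to the protein-coding gene NR6A1. The arm of miR-181a-2-3p is at chr9:124692518-124692539, plus strand. MIR181C and MIR181D lie on chromosome 19 in an intron of NANOS3, a germ cell RNA-binding protein gene, with miR-181c-3p at chr19:13874763-13874784, plus strand. The mature arms of paired hairpins are separated by 121, 1185 and 125 bases on chromosomes 1, 9 and 19. miR-181a-5p and miR-181b-5p are each encoded identically on chromosomes 1 and 9. Thus miR-181a-3p reads out MIR181A1, miR-181a-2-3p reads out MIR181A2, and the abundant guides read out both loci together.

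Library totals were 3797175 to 8283549 counts in adherent and 959141 to 3580931 in spheroid conditions, so that spheroid values of rare members carry more counting error. Between 1043 and 1172 miRNAs were detected in adherent libraries and between 799 and 1005 in spheroid libraries, except for spheroid shNeg replicate 1, which had 432 from 1220592 counts. That library stood apart and spheroid results are given with and without it where it matters. Of the marker miRNAs looked at, epithelial miR-200c-3p was present in every library at 1727 to 15963 CPM (counts scaled to a common library total). The other epithelial markers were far lower, with miR-141-3p at 29.5 to 271 CPM and miR-200b-3p at 0.819 to 41.5. miR-200a-3p was at 1.04 to 11.5 and miR-429 at 0 to 3.76 CPM. The 6 blood cell miRNAs summed to 6.97 to 48.8 CPM. The 5 epithelial markers, mostly miR-200c-3p, summed to 2996 to 3280 CPM in adherent shNeg, 1815 to 2216 in adherent shRELA and 6934 to 9791 in adherent shRELB. In the spheroid groups, in the same order, they summed to 1875 to 3333, 3187 to 6563 and 7150 to 16189. The 5 markers of stroma and endothelium, mostly miR-126-3p at 549 to 6771 CPM, summed to 6009 to 7131, 3880 to 6520 and 2287 to 2980 CPM in adherent and to 1049 to 1287, 1111 to 1688 and 747 to 1485 CPM in spheroid groups. Both lists thus moved with the groups compared here, and their part in the results was not tested.

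miR-181a-5p was the main product of the family in every library. It made up 73.8% to 84.7% of family counts in adherent and 86.2% to 94.8% in spheroid conditions, with miR-181b-5p next at 14.1% to 24.2% and 4.83% to 13.01%. The other 5 members together held at most 2.25%. The family as a whole took 1.35% to 2.73% of all miRNA counts in adherent and 2.03% to 4.06% in spheroid conditions. In CPM scaled by the trimmed mean of M-values (TMM), miR-181a-5p in adherent shNeg cells measured 16243 ± 928 (SD, n = 4), miR-181b-5p 3993 ± 266, miR-181a-2-3p 214 ± 10.4, miR-181a-3p 206 ± 5.22, miR-181d-5p 27.6 ± 2.20, miR-181c-3p 2.60 ± 1.51 and miR-181c-5p 1.181 ± 0.462. The neighbours in this order that overlapped between libraries were both miR-181a passengers and both miR-181c arms.

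**Figure D1:**
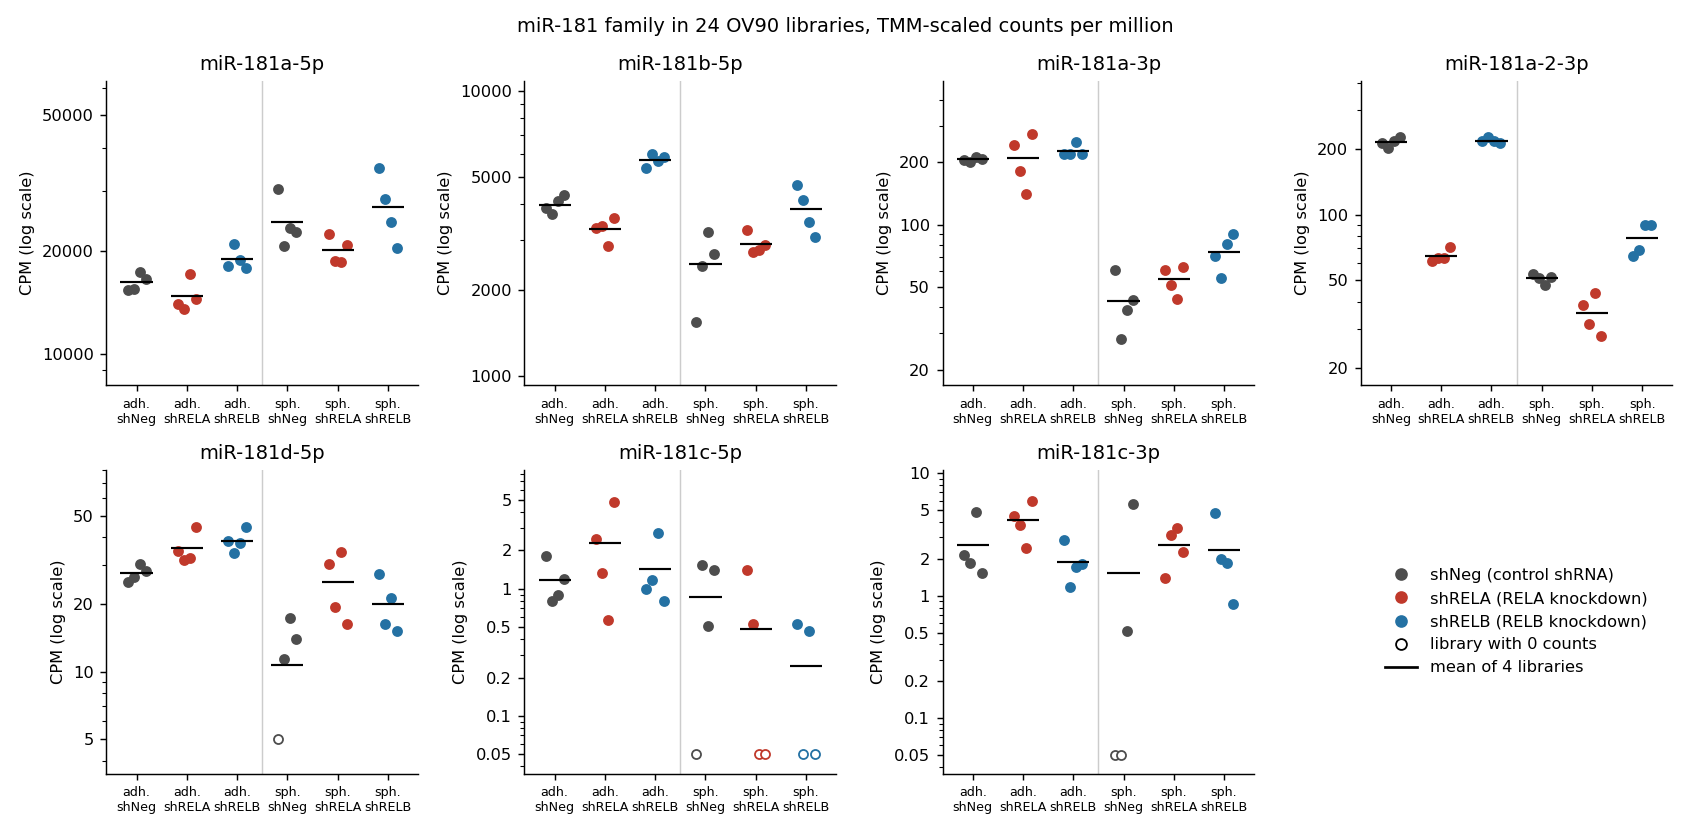
TMM-scaled CPM of the 7 members on log axes, 1 point per library, for adherent (adh.) and spheroid (sph.) groups of 4 libraries, with lines at the group means and open points for libraries with 0 counts, placed at the bottom. In adherent cells the shRELA libraries lie below the others only in the panel of miR-181a-2-3p by a wide margin, at 61.4 to 70.8 CPM against 201 to 226 in shNeg.

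In adherent conditions, shRELA was compared with shNeg. Other effects of the shRNA cannot be told apart here from loss of RELA. miR-181a-2-3p, the passenger of the chromosome 9 hairpin, was the single family member that was differentially expressed. Its 4 shNeg libraries measured 212, 201, 216 and 226 CPM and its 4 shRELA libraries 61.4, 63.0, 63.6 and 70.8 CPM. All shRELA libraries lay far below all shNeg libraries, and the gap was wider than the range within either group. The level fell 3.30-fold, a log2 fold change of -1.72 (SE 0.19), with FDR 1.22e-08 by edgeR's quasi-likelihood test over 905 miRNAs. A miRNA was called differentially expressed at an FDR below 0.01 with a fold change above 2, a rule that 3.76% of all miRNAs tested met in this comparison, against 1 of 7 members. The groups did not overlap for 3 of 7 members, miR-181a-2-3p, miR-181b-5p and miR-181d-5p, and for 20.7% of all miRNAs tested.

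miR-181a-3p, the corresponding passenger of the chromosome 1 hairpin, gave a different picture with RELA knockdown. Its shNeg libraries measured 205, 199, 212 and 208 CPM and its shRELA libraries 242, 180.7, 141 and 273 CPM. The shRELA libraries lay on both sides of the controls, and their spread was wider. The log2 fold change was 0.02 (SE 0.22), with FDR 0.992 by edgeR's quasi-likelihood test, and its sign changed with the scaling and filter. Of the guides shared by both hairpins, miR-181a-5p differed by -0.13 (SE 0.16) and miR-181b-5p by -0.29 (SE 0.17) on the log2 scale, with FDR 0.707 and 0.401 in the same edgeR test. The chromosome 19 members had log2 fold changes of 0.37 for miR-181d-5p, 0.67 for miR-181c-3p and 0.93 for miR-181c-5p, and none passed (lowest FDR 0.533).

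The difference between both passengers was also measured as a ratio within each library, which needs no scaling. In adherent shNeg cells the chromosome 9 hairpin gave 50.8%, 50.2%, 50.5% and 52.1% of the passenger counts of the miR-181a hairpins, a near-even split. In adherent shRELA cells it gave 20.3%, 25.8%, 31.1% and 20.6%, so that every shRELA library was below every control. The means were 50.9% ± 0.825 and 24.5% ± 5.11 (SD, n = 4 each). On the log2 scale the ratio of miR-181a-2-3p to miR-181a-3p differed by -1.70, with a 2-sided exact permutation p of 0.0286, the smallest that 4 against 4 libraries allow. Over the 34 ratio comparisons made in the family the Benjamini-Hochberg adjusted exact p was 0.0810, the lowest any of them reached, so none passed 0.05. The groups did not overlap in 12 of the 34. In adherent shRELB cells the share was 49.0% ± 1.68, with libraries at 49.5%, 50.6%, 46.6% and 49.1%, of which 1 lay within the shNeg range.

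**Figure D2:**
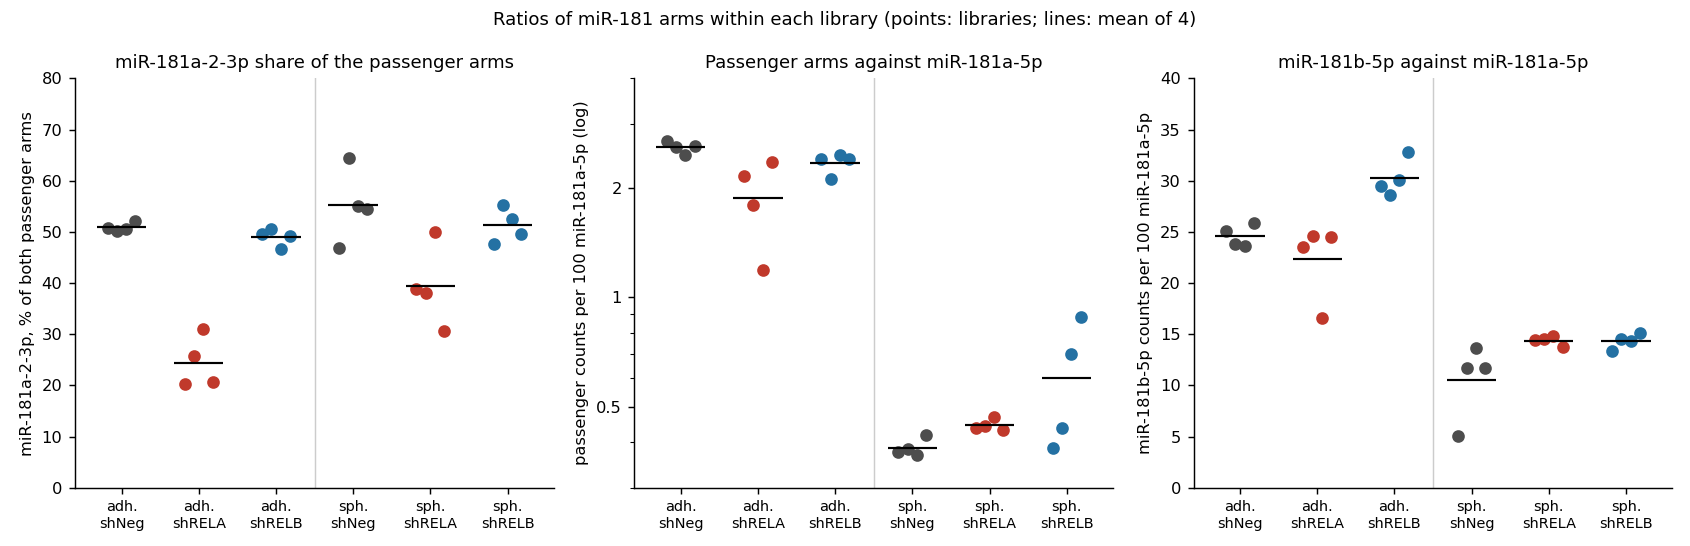
Within-library ratios by group (adh., adherent; sph., spheroid), 1 point per library with lines at the means of 4: the share of miR-181a-2-3p among counts of both miR-181a passengers (linear axis), both passengers per 100 counts of miR-181a-5p (log axis), and miR-181b-5p per 100 counts of miR-181a-5p (linear axis). The adherent shRELA group has the lowest mean share of miR-181a-2-3p, with libraries at 20.3% to 31.1%, and all spheroid groups stand below 1 passenger per 100 guides.

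To place this among other miRNAs, the minor arm was divided by the major arm for 68 pairs of arms. The log2 ratios were fitted with limma, an analysis chosen after the data were seen. Where a major arm is made by several hairpins, as miR-181a-5p is, the denominator pools them. The ratio then does not measure arm use within a single hairpin. The pair of miR-181a-2-3p and miR-181a-5p changed by -1.59 (SE 0.23) with RELA knockdown in adherent cells, with FDR 2.79e-05. It was the lowest of the 68 and the only one called, 1.47% of the pairs. The median of all pairs was -0.05, and the next lowest, miR-335-3p to miR-335-5p, was at -0.53 with FDR 0.999. The pair of miR-181a-3p and miR-181a-5p, which shares its denominator, was at 0.11 with FDR 0.999. With RELB knockdown in adherent cells, 2.94% of the pairs were called, and the miR-181a pairs were at -0.20 and -0.09 with limma FDR 0.7997 and 0.963. Leaving out each of the 8 libraries in turn kept the call of miR-181a-2-3p with RELA knockdown.

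**Figure D3:**
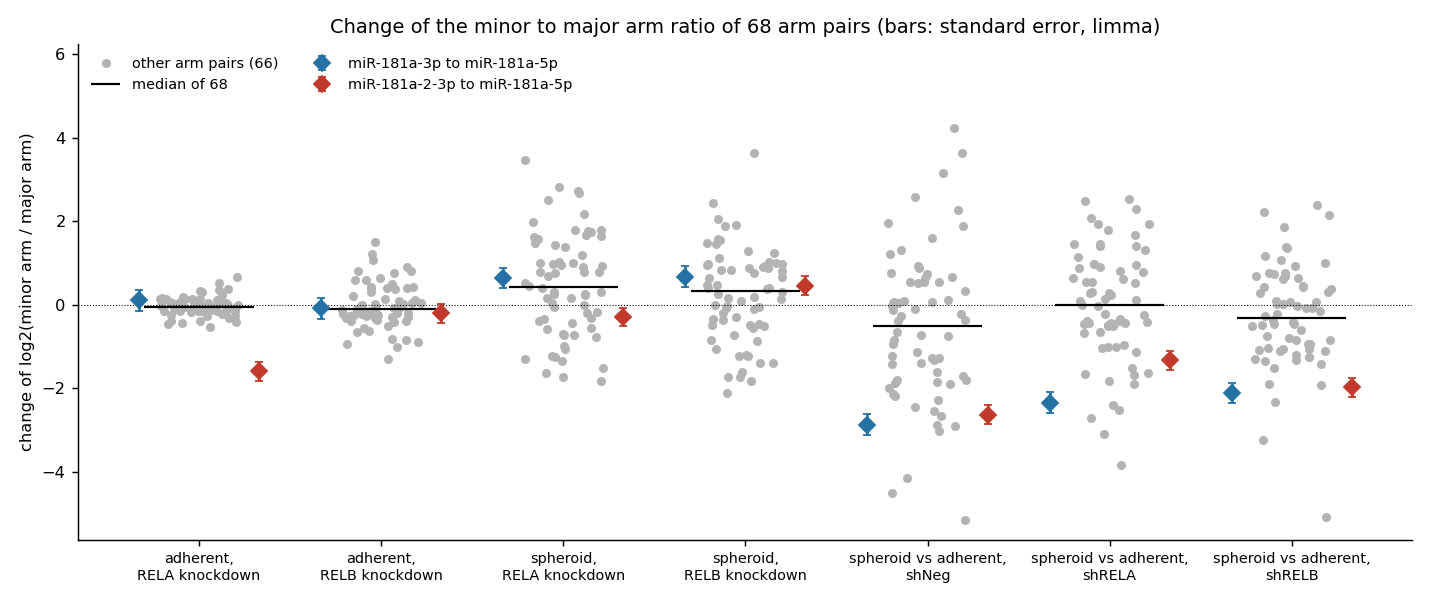
Change of the log2 ratio of minor to major arm for 68 arm pairs in 7 comparisons, in log2 units: grey points are other pairs, black lines the medians of 68, blue and red diamonds the miR-181a-3p and miR-181a-2-3p pairs with standard errors from limma. With RELA knockdown in adherent cells the red diamond, at -1.59, lies apart from all other pairs, and both diamonds are low in each comparison of spheroid with adherent cells.

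RELB knockdown in adherent conditions left no family member differentially expressed, where 7.07% of all miRNAs tested were; at an unadjusted p under 0.05 there was 1 member, and none was called by limma or DESeq2. miR-181a-2-3p measured 215, 225, 217 and 211 CPM in shRELB, within the range of its controls, a log2 fold change of 0.02 (SE 0.18). miR-181b-5p was the member at an unadjusted p under 0.05. It measured 3877, 3691, 4107 and 4300 CPM in shNeg and 5355, 6012, 5680 and 5860 CPM in shRELB. All shRELB libraries were above all controls, by a log2 fold change of 0.52 (SE 0.17) with FDR 0.0414 by edgeR's quasi-likelihood test, outside both thresholds. Without overlap were 4 of 7 members and 33.1% of all miRNAs tested. miR-181b-5p per 100 counts of miR-181a-5p was 24.6 ± 1.05 in shNeg and 30.2 ± 1.79 in shRELB (SD, n = 4 each), again without overlap (log2 difference 0.30, 2-sided exact permutation p = 0.0286, adjusted 0.0810).

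Compared directly in adherent cells, shRELA and shRELB differed in miR-181a-2-3p by -1.75 on the log2 scale (SE 0.19), with FDR 1.34e-08 by edgeR's quasi-likelihood test. It was the only one of 7 members called, where 10.9% of all miRNAs tested were. miR-181b-5p was also lower in shRELA than in shRELB, by a log2 difference of -0.81 (SE 0.17) with FDR 6.82e-04 in the same edgeR test, under the fold change threshold (13.6% of all miRNAs tested had an FDR below 0.01 with any fold change), and miR-181a-3p differed by -0.12 (SE 0.22) with FDR 0.779. Without overlap were 3 of 7 members and 31.3% of all miRNAs tested.

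**Figure D4:**
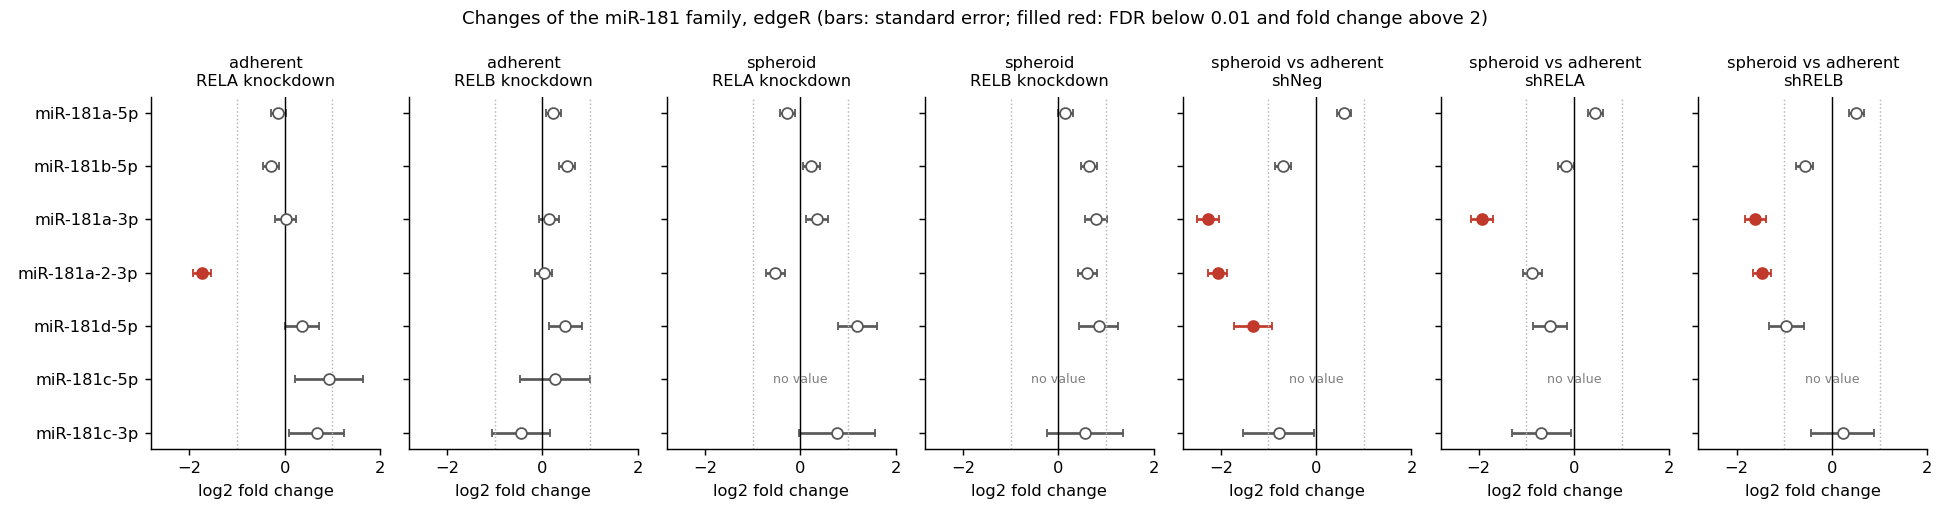
Log2 fold changes of the 7 members (rows) in 7 comparisons (panels), with standard errors from edgeR, filled red where the FDR was below 0.01 and the fold change above 2 (dotted lines at a log2 fold change of -1 and 1). miR-181a-2-3p at -1.72 is the single filled point among the 4 knockdown comparisons, and miR-181a-3p is filled in all 3 comparisons of cultures.

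In spheroid conditions, the levels of both passengers were already low in the control cells. miR-181a-2-3p measured 53.5, 51.2, 47.7 and 51.9 CPM in shNeg, 38.4, 31.5, 43.9 and 27.7 in shRELA and 64.3, 68.8, 89.3 and 89.5 in shRELB. In TMM-scaled CPM the 3 groups did not overlap, with shRELA lowest and shRELB highest. The gap between shNeg and shRELB rests on this scaling and is not present with library totals. The TMM factors were 1.12 to 1.37 in shNeg and 0.974 to 1.09 in shRELB. With TMM, miR-181a-2-3p was the only one of 6 members without overlap against shNeg in either knockdown. Of all miRNAs tested, 22.5% did not overlap with RELA and 17.3% with RELB knockdown. With RELA knockdown the log2 fold change was -0.53 (SE 0.20) with FDR 0.0428 by edgeR's quasi-likelihood test, which missed both thresholds. No member was called of the 6 with a value, against 15.1% of all miRNAs tested, with 2 members at an unadjusted p under 0.05, none called by limma and 1, miR-181d-5p, by DESeq2. The other of the 2 was miR-181d-5p, at 0, 11.5, 17.4 and 14.04 CPM in shNeg and 30.5, 19.4, 34.5 and 16.3 in shRELA. It had a log2 fold change of 1.19 (SE 0.41, FDR 0.0267, edgeR), or 0.79 without spheroid shNeg replicate 1, and was called without spheroid shNeg replicate 3 (1.52). miR-181c-5p had at most 3 counts in every spheroid library and is given no fold change in any comparison with spheroid cells.

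With RELB knockdown in spheroids no member was called either, where 13.4% of all miRNAs tested were; 4 of the 6 members had an unadjusted p under 0.05, and limma and DESeq2 called none. The values of these 4 were all above 0: the log2 fold change was 0.79 (SE 0.23) for miR-181a-3p, 0.61 (SE 0.19) for miR-181a-2-3p, 0.64 (SE 0.17) for miR-181b-5p and 0.85 (SE 0.41) for miR-181d-5p. The FDRs by edgeR were 0.0101, 0.0166, 0.00550 and 0.126. miR-181b-5p was thus 1 member with an FDR below 0.01, as had 16.7% of all miRNAs tested at any fold change. Without spheroid shNeg replicate 1, miR-181a-3p was called at a log2 fold change of 1.004 with FDR 4.18e-04. The other 3 then stood at 0.64 for miR-181a-2-3p, 0.47 for miR-181b-5p and 0.44 for miR-181d-5p, with edgeR FDRs of 0.0101, 0.0158 and 0.279, so that miR-181b-5p no longer had an FDR below 0.01. Other scaling, filters and tests (limma, DESeq2) gave 0.54 to 0.81 for miR-181a-3p (FDR up to 0.217) and 0.34 to 0.62 for miR-181a-2-3p (up to 0.360). They gave 0.36 to 0.67 for miR-181b-5p (up to 0.265) and 0.56 to 1.42 for miR-181d-5p (up to 0.611). For miR-181a-3p the shNeg libraries measured 60.9, 28.3, 39.0 and 43.5 CPM and the shRELB libraries 70.6, 55.5, 80.5 and 90.6, overlapping in replicate 1 of shNeg.

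The direct comparison of both knockdowns in spheroids called 1 of the 6 members with a value, where 6.63% of all miRNAs tested were called and 20.4% did not overlap. This was miR-181a-2-3p, lower in shRELA than in shRELB by 2.21-fold, a log2 difference of -1.14 (SE 0.19) with FDR 4.68e-05 by edgeR's quasi-likelihood test. Without spheroid shRELA replicate 4 the log2 difference was -0.9997, just under the fold change threshold. miR-181a-3p differed by -0.44 (SE 0.23) with FDR 0.195. The chromosome 9 share of the passenger counts in spheroids was 55.2% ± 7.22 in shNeg, 39.4% ± 7.98 in shRELA and 51.3% ± 3.37 in shRELB (SD, n = 4 each). The shRELA libraries were at 38.9%, 38.0%, 50% and 30.7% and the shNeg libraries at 46.8%, 64.4%, 55.0% and 54.4%, so that the groups overlapped. The log2 ratio differed by -0.93 between them (2-sided exact permutation p = 0.0571, adjusted 0.102).

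The response of miR-181a-2-3p to RELA knockdown was smaller in spheroid than in adherent cells. The difference between the log2 fold changes was 1.19 (SE 0.27) with FDR 0.00218 by edgeR's quasi-likelihood test. It was 1 of 6 members called, where 7.62% of all miRNAs tested were. The fold change of this difference fell below 2 with median-ratio size factors, with library totals, with DESeq2 and with only miRNAs averaging 10 CPM or more, and its FDR was 0.0134 without a filter, so this call depended on the processing. The arm ratio, which is not scaled, gave 1.30 (SE 0.32) with limma FDR 0.00495, where 20.6% of the 68 pairs were called; this FDR was 0.0102, 0.0103 and 0.0121 without adherent shNeg replicate 1, adherent shNeg replicate 4 and spheroid shRELA replicate 3. No member was called for the corresponding difference with RELB knockdown (8.51% of all miRNAs tested were), with 2 at an unadjusted p under 0.05 and none called by limma or DESeq2. miR-181a-2-3p was at 0.59 (SE 0.26) with FDR 0.139.

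Spheroid and adherent cells were then compared within each shRNA. In shNeg cells, both miR-181a passengers were strongly down-regulated in TIC-enriched spheroid conditions. miR-181a-3p fell 4.80-fold, from 206 ± 5.22 to 42.9 ± 13.6 CPM (SD, n = 4 each), a log2 fold change of -2.26 (SE 0.24, FDR 6.17e-10, edgeR). miR-181a-2-3p fell 4.18-fold, from 214 ± 10.4 to 51.1 ± 2.46 CPM, a log2 fold change of -2.07 (SE 0.20, FDR 7.34e-11). No spheroid library overlapped an adherent one for either. miR-181d-5p, a minor guide of chromosome 19, fell by 1.33 on the log2 scale (SE 0.40, FDR 0.00520), but it had 0 counts in spheroid shNeg replicate 1, where 3 counts would be 2.46 CPM. This call was lost without that library (-0.93), without adherent shNeg replicate 3 or 4 (FDR 0.0133 and 0.0112) and with library totals (-0.87). These were 3 of 6 members called, where 42.2% of all miRNAs tested were, and 5 had an FDR below 0.01 with any fold change, as had 45% of all. The groups did not overlap for these 5, with 47.5% of all miRNAs tested.

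The abundant guides moved in opposite directions between the cultures in shNeg cells, each under the fold change threshold. miR-181a-5p measured 15462, 15503, 17370 and 16638 CPM in adherent and 30442, 20714, 23452 and 22845 CPM in spheroid cells. The spheroid libraries were all above the adherent ones, by a log2 fold change of 0.58 (SE 0.16) with FDR 0.00190 by edgeR's quasi-likelihood test. miR-181b-5p measured 1550, 2432, 3199 and 2683 CPM in spheroid cells, all below the adherent libraries, with a log2 fold change of -0.70 (SE 0.17, FDR 9.15e-04). With libraries left out in turn, miR-181a-5p ranged from 0.34 to 0.62 (edgeR FDR up to 0.0785) and miR-181b-5p from -0.999 to -0.53 (up to 0.00407). Other scaling, filters and tests (limma, DESeq2) gave 0.35 to 1.01 (FDR up to 0.115) and -0.94 to -0.24 (up to 0.252). An FDR below 0.01 thus depended on single libraries for miR-181a-5p and on the processing for both. Within libraries, miR-181b-5p per 100 counts of miR-181a-5p was 24.6 ± 1.05 in adherent and 10.6 ± 3.75 in spheroid shNeg cells (SD, n = 4 each), a log2 difference of -1.31 without overlap (2-sided exact permutation p = 0.0286, adjusted 0.0810). In shRELA cells this ratio went from 22.3 ± 3.84 to 14.4 ± 0.422 and in shRELB cells from 30.2 ± 1.79 to 14.3 ± 0.702, log2 differences of -0.62 and -1.08, likewise without overlap. Without the outlying spheroid shNeg replicate 1, at 5.09, the spheroid libraries of all 3 groups spanned 11.7 to 15.1.

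Both miR-181a passengers were also lower in spheroid than in adherent cells with either knockdown. The rare miR-181c-3p was at -0.78 (SE 0.75) in shNeg, -0.68 (SE 0.63) in shRELA and 0.22 (SE 0.66) in shRELB cells. These are log2 fold changes, none of them called. The shRELB value ranged from -0.30 to 0.50 with libraries left out, so the direction of miR-181c-3p was not resolved. In shRELA cells, 1 of 6 members was called, where 32.6% of all miRNAs tested were: miR-181a-3p, with a log2 fold change of -1.93 (SE 0.23, FDR 2.37e-08, edgeR). miR-181a-2-3p, already low in adherent shRELA cells, differed by -0.87 (SE 0.19, FDR 3.47e-04), under the fold change threshold, so that 2 of 6 had an FDR below 0.01 with any fold change (38.1% of all). It was called without spheroid shRELA replicate 1 (-1.02), without spheroid shRELA replicate 3 (-1.11) and without a filter (-1.04). In shRELB cells, 2 of 6 members were called, where 25% of all miRNAs tested were: miR-181a-3p at -1.61 (SE 0.22, FDR 6.65e-07) and miR-181a-2-3p at -1.48 (SE 0.19, FDR 1.14e-07), both by edgeR. In shRELB cells 4 of 6 had an FDR below 0.01 with any fold change, against 29.2% of all. The groups did not overlap for 3 of 6 members in shRELA and 4 of 6 in shRELB cells, with 46.3% and 41.5% of all miRNAs tested. miR-181a-5p was at 0.45 in shRELA and 0.51 in shRELB cells, and miR-181b-5p at -0.17 and -0.57.

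The passengers were also compared with their guide within each library. In adherent shNeg cells there were 2.69, 2.58, 2.46 and 2.61 counts of both miR-181a passengers per 100 counts of miR-181a-5p. In spheroid shNeg cells there were 0.376, 0.383, 0.370 and 0.418. The spheroid libraries thus lay close together and well below the adherent ones, with a log2 difference of -2.74 (2-sided exact permutation p = 0.0286, adjusted 0.0810). In shRELA cells the ratio was 1.88 ± 0.513 in adherent and 0.446 ± 0.0164 in spheroid conditions, and in shRELB cells 2.35 ± 0.156 and 0.601 ± 0.232 (SD, n = 4 each), log2 differences of -2.02 and -2.04 without overlap. Within adherent cells the ratio was lower in shRELA than in shNeg without overlap (log2 difference -0.51), and within spheroids it was higher in shRELA than in shNeg without overlap (0.21), each with an exact permutation p of 0.0286, adjusted 0.0810.

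Among the 68 arm pairs, no miR-181a pair was called with either knockdown in spheroids, where 22.1% of all pairs were with RELA and 17.6% with RELB knockdown. The miR-181a-2-3p pair was at -0.29 and 0.45 (limma FDR 0.287 and 0.100) and the miR-181a-3p pair at 0.64 and 0.68 (FDR 0.0332 and 0.0360), respectively. For the difference in RELB response between cultures 11.8% of all pairs were called and neither miR-181a pair was. Between cultures, in shNeg cells the miR-181a-3p pair changed by -2.88 (SE 0.25) and the miR-181a-2-3p pair by -2.63 (SE 0.23) between cultures, with limma FDR 6.10e-10 and 5.75e-10. Both were called, as were 45.6% of all pairs counted in either direction. The median of all pairs was -0.51, and 6 and 8 pairs were lower still. In shRELA cells the 2 pairs were at -2.35 and -1.33 and in shRELB cells at -2.11 and -1.97, all called, as were 38.2% and 26.5% of all pairs in either direction. The median of all pairs was -0.0090 in shRELA cells, where 34 of 68 were below 0, and -0.31 in shRELB cells, where 40 were.

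The chromosome 19 hairpins were near the limit of detection. In adherent shNeg libraries miR-181c-5p had 11, 3, 5 and 7 counts and miR-181c-3p 13, 7, 27 and 9, while miR-181d-5p from the neighbouring hairpin had 152, 100, 169 and 165. miR-181c-3p made up 66.2% ± 14.007 of the counts of both MIR181C arms in adherent shNeg, 68.7% ± 11.3 in shRELA and 57.9% ± 16.6 in shRELB (SD, n = 4 each), so that neither arm dominated as miR-181a-5p does in its hairpins. Set against the summed miR-181a passengers, miR-181c-3p was higher in adherent shRELA, at 1.47, 1.57, 1.21 and 1.73 per 100, than in shNeg, at 0.518, 0.466, 1.13 and 0.356 per 100. The groups did not overlap (log2 difference 1.38, 2-sided exact permutation p = 0.0286, adjusted 0.0810), although the denominator holds miR-181a-2-3p. In spheroid shNeg libraries miR-181c-3p had 0, 0, 1 and 8 counts, and its group mean rests on replicate 4.

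The remaining arms of the hairpins were rarer. miR-181b-3p, from chromosome 1, had 7 to 21 counts in adherent shNeg, 9 to 26 in shRELA and 10 to 21 in shRELB libraries, and at most 1 in any spheroid library. miR-181b-2-3p, from chromosome 9 beside MIR181A2, had 3, 1, 1 and 4 counts in adherent shNeg and 1, 0, 0 and 1 in adherent shRELA libraries, but also 1, 1, 0 and 0 in adherent shRELB, and 0 in spheroids. Its counts overlapped between shNeg and shRELA, with libraries of 1 count in both groups. In CPM the shRELA libraries, at 0 to 0.165, lay just below the shNeg libraries, at 0.179 to 0.688, a gap that rests on library size. On so few counts no test was made. miR-181d-3p had at most 5 counts in any library.

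Within 50 kb of a miR-181 hairpin lay MIR23A, MIR27A and MIR24-2, about 38 kb from MIR181C on chromosome 19, with 5 arms tested. Of these arms, miR-24-3p is made by 2 hairpins, so its counts cannot be traced to MIR24-2 alone. None of the 5 was called in the adherent or spheroid RELA knockdown or in the adherent RELB knockdown, and 2 were up-regulated with RELB knockdown in spheroids, miR-23a-3p with a log2 fold change of 1.13 and miR-27a-5p with 1.58 (FDR 6.80e-04 and 0.00278, edgeR), where 13.4% of all miRNAs tested were called in either direction. In spheroid against adherent shNeg cells all 5 were called, of which miR-23a-5p rose (3.04) and the other 4 fell (-1.33 to -2.24), with 42.2% of all miRNAs tested called. In shRELA cells 3 of the 5 were called between cultures (32.6% of all), miR-23a-5p higher (1.799) and miR-23a-3p and miR-27a-3p lower (-1.41 and -1.12). In shRELB cells 1 was (25% of all), miR-23a-3p (-1.20). Over the 24 libraries, 330 other miRNAs averaging 10 CPM or more were compared with members on the log2(CPM + 1) scale. The most alike to miR-181a-5p were miR-483-5p (Pearson's r = 0.866), miR-1180-3p (0.863) and miR-1224-5p (0.860). To miR-181a-2-3p, looked at after its values were seen, they were miR-140-3p (0.931), miR-143-3p (0.908) and miR-503-5p (0.879), of which miR-143-3p is on the list of stroma and endothelium markers, at 4.94 to 152 CPM. No likeness is given for miR-181c-5p, which had at most 3 counts in every spheroid library. These are descriptions over libraries that share culture, depth and scaling.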

How the data were processed

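Small RNA libraries (QIAseq miRNA kit) of 24 OV90 samples were sequenced and, per the study's methods, trimmed with Cutadapt and quantified with miRDeep2 against miRBase and GRCh38; whether molecular identifiers were collapsed is not given in the sources used here. The authors deposited 1 table of estimated counts per miRNA, unscaled. Of the non-zero values 3.04% were not whole and were rounded, by at most 0.5 counts for a member. Groups came from the sample titles, which do not say whether replicates were separate cultures, so p-values measure the spread between these libraries.

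The 905 miRNAs that reached 1 CPM in 4 or more libraries were fitted in edgeR 4.0.16 (R 4.3.3; TMM; quasi-likelihood test; 6 groups), with Benjamini-Hochberg adjustment and calls at FDR below 0.01 and fold change above 2. Ratios within libraries (0.5 counts added) were compared by 2-sided exact permutation tests, and arm ratios of 68 pairs with limma 3.58.1. DESeq2 1.42.0 was an alternative. All tests were tested on simulated data. Members, named miRNAs and lists were chosen with earlier results of these data known: all 7 members, other arms of their hairpins, miRNAs with the same seed, hairpins within 50 kb, the 3 miRNAs most correlated with miR-181a-5p (those for miR-181c-5p were left out because of its low counts), and markers where at issue. No fold was given where a group had at most 3 counts in every library. The titles do not say whether equal replicate numbers mark a shared culture or day, and libraries were analysed as unpaired. Residual correlations of same-numbered libraries were -0.52 to 0.43 (median -0.02), and 14 of 60 exceeded 0.1. They were not set against differently numbered libraries, so they cannot exclude pairing.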

Additional observations from a re-analysis of the deposited data

Results flagged for a closer look

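The RELA knockdown response of miR-181a-2-3p differed between the cultures by 1.19 on the log2 scale, by the test of the difference itself in edgeR (FDR 0.00218). Under other scaling, filters and tests (limma, DESeq2) the difference was 0.91 to 1.27, with FDR up to 0.0175. The call was lost with library totals, median-ratio size factors, DESeq2, no filter and a filter at an average of 10 CPM.

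In 72 groups of 4 libraries, Dixon's criterion at the 95% level marked 1 library in each of 4, where chance marks about 1 in 20 groups. miR-181a-3p measured 249 CPM in adherent shRELB replicate 3, against 219 to 220 in the other 3. miR-181c-3p measured 5.62 CPM in spheroid shNeg replicate 4, against 0 to 0.513 in the others. The log2 ratio of miR-181b-5p to miR-181a-5p was -2.59 in adherent shRELA replicate 3, a library in which miR-181a-3p was also lowest of its group at 141 CPM. It was -4.30 in spheroid shNeg replicate 1, the library with 432 miRNAs detected.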

How the results depend on the processing

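Depth limits the rare members most: 3 counts stand for 0.362 to 0.790 CPM in adherent and 0.838 to 3.13 CPM in spheroid libraries. Library totals without TMM moved the median of all miRNAs by -0.41 to 0.43 log2 units, and median-ratio size factors by -0.19 to 0.12. The up-regulated share of all calls was 29.4% to 56.5% over the comparisons with TMM and 17.6% to 62.2% with library totals. The call of miR-181a-2-3p in adherent RELA knockdown was made under every alternative, between -1.66 and -1.85.

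Counts of members called moved as follows. With RELA knockdown in spheroids the count of 0 became 1 with DESeq2 and at an FDR below 0.05, and was 0 to 1 with each library left out in turn. With RELB knockdown in spheroids it became 1 with no fold change threshold and was 0 to 1 with libraries left out. Between cultures the count of 3 in shNeg cells became 5 with no fold change threshold (2 to 3 with libraries left out), that of 1 in shRELA cells became 2 with no filter and 2 with no fold change threshold (1 to 2), and that of 2 in shRELB cells became 4 with no fold change threshold. shRELA against shRELB gave 2 in adherent cells with library totals and with no fold change threshold, and 0 to 1 in spheroids with libraries left out. The difference in RELA response between cultures gave 0 with library totals, with DESeq2, without a filter, with median-ratio size factors and with a filter at an average of 10 CPM. miR-181d-5p between cultures in shNeg cells was also not called with a filter at an average of 10 CPM (-0.98), with median-ratio size factors (FDR 0.0101) or with only the groups compared (FDR 0.225). limma on the minor to major arm ratios called 7 values for the miR-181a pairs. This is not comparable with the exact tests, which used other ratios. Their p cannot fall below 0.0286 with 4 against 4 libraries, and none had an adjusted p below 0.05.

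Sign changes occurred only in values that were not called. miR-181a-3p in adherent RELA knockdown was -0.084 with no filter, -0.035 with a filter at an average of 10 CPM, -0.12 with library totals, -0.025 with limma, -0.0089 with the replicate block and -0.064 with only the groups compared (-0.17 to 0.18 with libraries left out). miR-181a-2-3p in adherent RELB knockdown was -0.024 with no filter and -0.066 with only the groups compared (-0.033 to 0.052). With library totals in spheroids, miR-181a-3p and miR-181b-5p were -0.027 and -0.18 with RELA knockdown and miR-181a-5p was -0.10 with RELB knockdown, the last also -0.047 with a filter at an average of 10 CPM. miR-181b-5p between cultures in shRELA cells was 0.016 with a filter at an average of 10 CPM. With libraries left out, miR-181c-5p and miR-181c-3p in adherent RELB knockdown ranged from -0.27 to 0.54 and -0.72 to 0.037, miR-181c-3p between cultures in shRELB cells from -0.30 to 0.50, and miR-181a-3p in adherent shRELA against shRELB from -0.30 to 0.041. The cause was not tested. The replicate number as a block changed no call and no count of members called. miR-181c-3p has no value without spheroid shNeg replicate 4, since the remaining libraries had at most 3 counts.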
